A study of Mus musculus with 16 samples.

Results

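Hearts collected after 24 hours of reperfusion were compared with hearts of sham-operated mice, gene by gene. The comparison takes in 8 of the 16 arrays of the series, which are 4 arrays labelled as ischemia/reperfusion for 24 hours (replicates 14, 15, 16 and 17) and 4 arrays labelled as sham (replicates 2, 3, 4 and 5). Mice of the 24 h group had undergone a 30 min ligation of the left anterior descending branch before blood flow was restored. All mice were wild-type C57BL/6 males of 10 weeks, and total RNA came from the heart, with no region named. The sham labels give no hour of collection, and no label gives the clock time at which any heart was taken. The remaining 8 arrays, 4 each of 6 h and 72 h reperfusion, enter below only where the 24 h hearts are set against them. One RNA sample was hybridised to each array, and p-values measure the spread between these samples, which may be technical.

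Reopening a blocked coronary artery restores flow to muscle that has been starved of oxygen and adds injury of its own. Dying cardiomyocytes release signals that draw neutrophils and then monocytes from the blood, while fibroblasts are stimulated to divide and to deposit matrix. Surviving cardiomyocytes switch on stretch and stress genes, and the heart, which normally burns fatty acids, lowers many genes of mitochondrial fuel use.

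Every value here is a log2 level as the authors deposited it and changes are 24 h minus sham in log2 units. A total of 19505 named genes were tested with limma, and a gene was said to rise or fall where its Benjamini-Hochberg adjusted p was under 0.05. By that measure 5093 genes changed, 26.1% of those tested, of which 2701 (13.8%) were higher and 2392 (12.3%) were lower in 24 h hearts. Changes of at least 2-fold numbered 1187 upward (6.09%) and 606 downward (3.11%). The 4 and 4 arrays did not overlap for 5056 genes, 25.9% of those tested. Counts of rises and falls in the gene groups below are to be read beside these shares over all genes. The median change over all genes was -0.07, and the median standard error of a change was 0.18. A mean under 6.76, the 75th percentile of the array's negative control probe sets, is called background below. Where one group lay under it, the fold is given as a lower bound against that level, from the mean of the brighter group. Means of both groups lay under it for 10696 genes. These include 1077 of the genes that changed and 236 of those that changed at least 2-fold. Relative to the 6 h hearts 3372 genes were higher (17.3%) and 2135 lower (10.9%) at 24 h, and relative to the 72 h hearts 1183 were higher (6.07%) and 1337 lower (6.85%). These comparisons share the 24 h arrays with the one against sham.

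On the leading principal component of the 8 arrays, which carried 66.8% of the variance, the 24 h replicates scored 41.93, 62.30, 65.03 and 17.05, against -46.32, -51.76, -46.69 and -41.54 for the sham replicates. On this component replicate 17 was the 24 h heart nearest to sham, and replicates 15 and 16 were farthest from it. Second component scores were 20.33, 5.23, -22.32 and -1.48 for the 24 h replicates, against -10.99, -15.84, -2.08 and 27.15 for the sham replicates, where sham replicate 5 was the highest. Replicate 16 also carried atrial markers, whose mean level was 7.51, 7.28, 9.84 and 7.500 in the 24 h hearts, against 7.49, 7.56, 7.43 and 7.39 in sham hearts. Cardiomyocyte markers averaged 17.44, 17.18, 17.25 and 17.54 in the 24 h hearts and 17.78, 17.73, 17.79 and 17.74 in sham hearts, so that heart muscle genes were abundant on each array. Neutrophil markers averaged 7.67, 9.38, 9.72 and 6.14 at 24 h, against 4.58, 4.60, 4.22 and 4.15 in sham, with an SD of 1.66 over the 24 h hearts, the largest among the marker lists. Leaving out replicates 16 and 17 together gave 2545 higher and 1999 lower genes, and 2330 and 1715 of the original calls were still made. The hybridization spike-ins averaged 10.23 at 24 h and 10.54 in sham (exact permutation p = 0.0571, two-sided, adjusted over 23 array measures p = 0.131). Setting every array on these spike-ins moved the median gene to 0.24 and the share of called genes that were higher to 84.4%, against 53.03% on the deposited scale. That share was 42.5% after centring on the array median, 45.1% on the poly-A spike-ins and 48.2% after quantile normalization, so that falls outnumbered rises there. Where the count of a gene group in its main direction differed by more than 1.5 times on that spike-in scale, that count is given too.

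**Figure D1:**
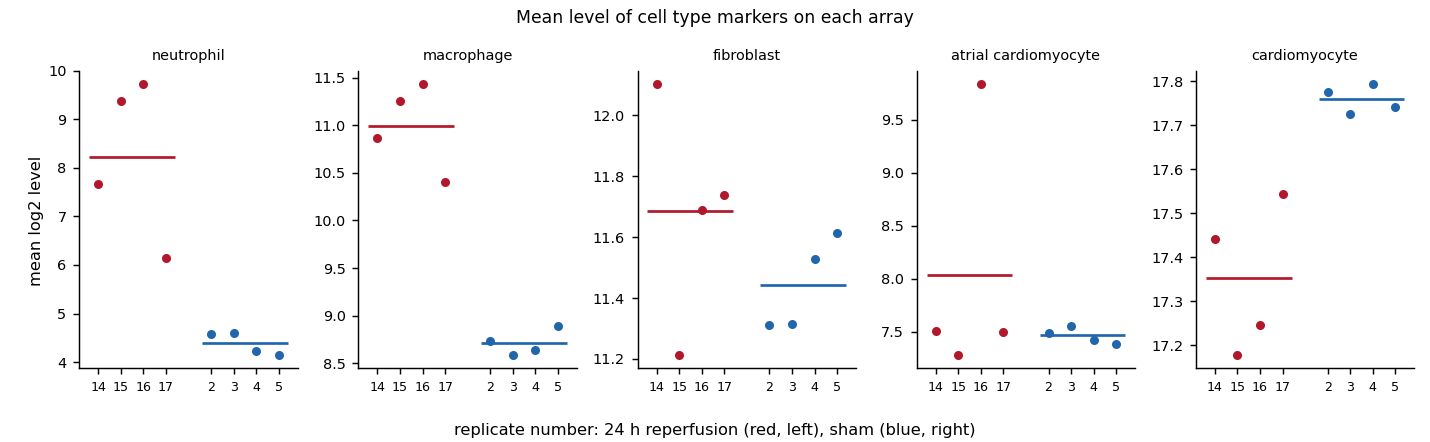
Mean log2 level of 5 marker lists on each of the 8 arrays, with 24 h replicates 14 to 17 on the left of each panel and sham replicates 2 to 5 on the right; bars mark the group means. Neutrophil markers spread from 6.14 to 9.72 among the 24 h hearts, the atrial list is raised on replicate 16 alone, and cardiomyocyte markers lie between 17.18 and 17.54 at 24 h and between 17.73 and 17.79 in sham.

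The largest single rise among all genes tested was that of an inhibitor of matrix breakdown. Timp1, a secreted inhibitor of matrix metalloproteinases, read 13.60, 14.16, 14.98 and 13.17 in the 24 h hearts, against 5.17, 4.59, 5.32 and 5.01 in sham hearts (log2 change 8.95 ± 0.50 (SE), adjusted p = 1.44e-09, at least 148-fold higher at 24 h). Prg4, the lubricating glycoprotein of joint surfaces, read 14.83, 14.75, 15.73 and 14.87 at 24 h, against 8.98, 9.36, 9.13 and 7.503 in sham (log2 change 6.30 ± 0.47 (SE), adjusted p = 2.47e-08). Lcn2, a siderophore-binding acute-phase protein, read 15.33, 15.23, 16.32 and 16.41 at 24 h, against 9.95, 10.30, 10.40 and 7.38 in sham (log2 change 6.32 ± 0.55 (SE), adjusted p = 1.50e-07). Genes of this paragraph were picked by size of change among genes whose groups did not overlap. For both Prg4 and Lcn2 sham replicate 5 lay below the other sham hearts. Pkd2l2, a member of the polycystin channel family, read 8.58, 7.71, 8.24 and 8.82 at 24 h, against 11.77, 11.94, 11.69 and 11.83 in sham (log2 change -3.47 ± 0.25 (SE), adjusted p = 2.35e-08). Lrtm1, a leucine-rich repeat membrane protein, read 13.68, 12.52, 12.60 and 14.21 at 24 h, against 16.25, 16.13, 16.39 and 16.45 in sham (log2 change -3.05 ± 0.28 (SE), adjusted p = 2.52e-07). Asb14 and Asb15, which encode ankyrin repeat and SOCS box proteins, changed by -2.92 and -2.90, both past the test. Phkg1, the catalytic subunit of muscle phosphorylase kinase, reached background at 24 h (log2 change -2.69 ± 0.21 (SE), adjusted p = 5.60e-08, at least 5.62-fold lower at 24 h).

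**Figure D2:**
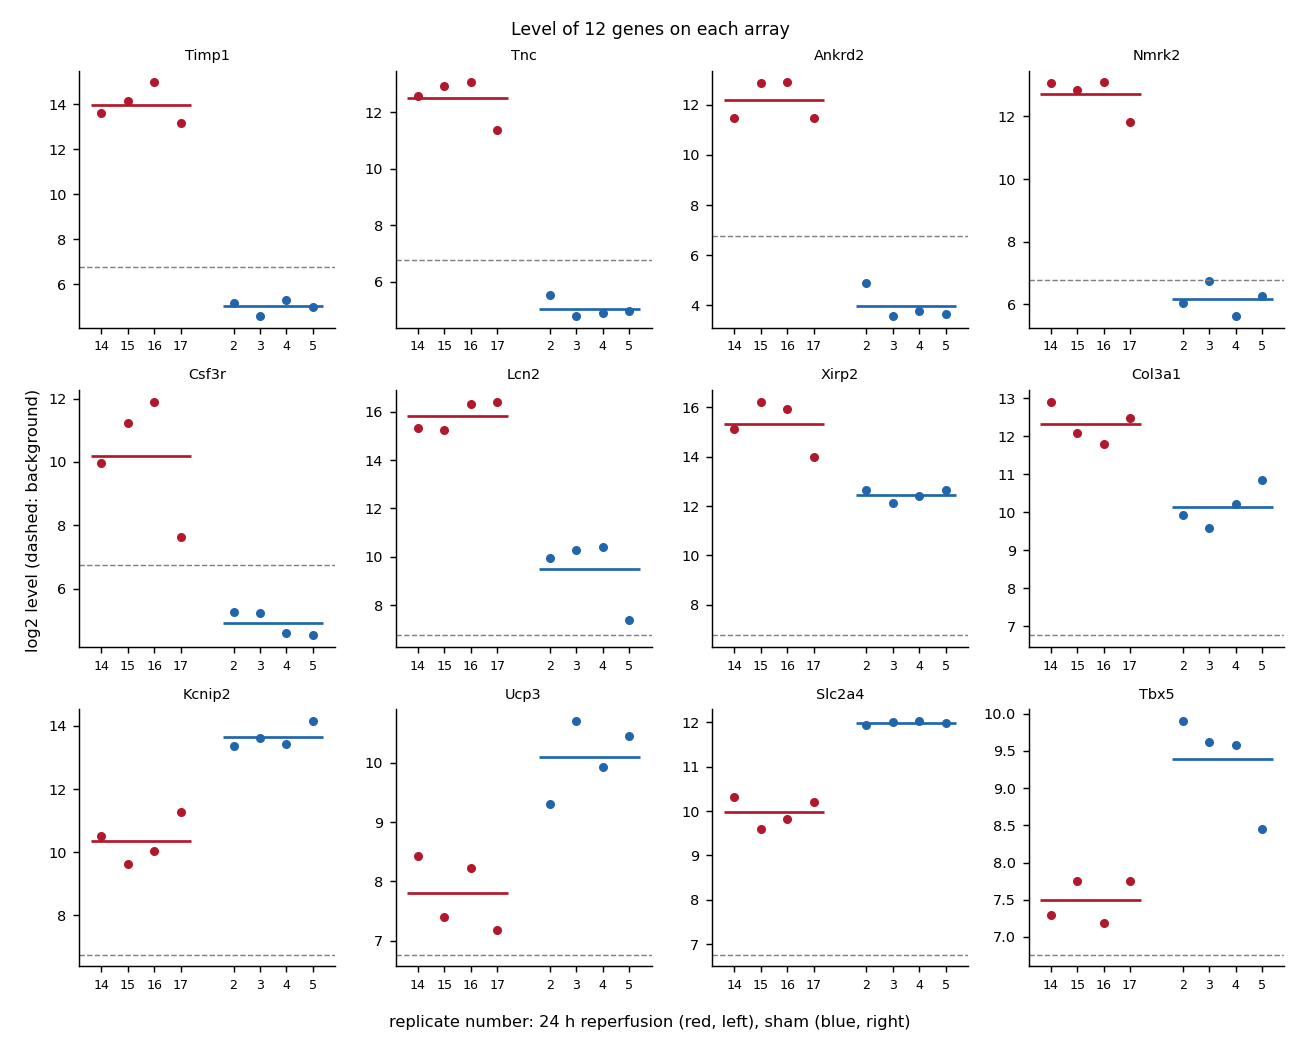
Log2 level of 12 genes on each array, with 24 h replicates 14 to 17 on the left and sham replicates 2 to 5 on the right of each panel; horizontal bars are group means and the dashed line is the background level of 6.76. The groups do not overlap in any of these 12 genes, nor in 25.9% of all genes tested. Timp1, Tnc, Ankrd2, Nmrk2, Csf3r, Lcn2 and Kcnip2 were picked among genes without overlap. Replicate 17 is the lowest 24 h heart for Timp1, Tnc and Csf3r.

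Among genes that respond to stretch and to stress on the Z-disc, the anchoring plane of the sarcomere, 16 of 18 rose and 2 fell, with a median change of 1.61. Ankrd2, a stretch-responsive ankyrin repeat protein, read 11.49, 12.87, 12.90 and 11.47 at 24 h, against 4.88, 3.59, 3.78 and 3.66 in sham (log2 change 8.21 ± 0.55 (SE), adjusted p = 9.50e-09, at least 42.8-fold higher at 24 h). Replicates 15 and 16 were the higher pair of 24 h hearts for it, and all 4 lay far above the sham hearts. Xirp2, an actin-binding protein of the intercalated disc, read 15.11, 16.23, 15.95 and 13.9997 at 24 h, against 12.64, 12.12, 12.41 and 12.64 in sham (log2 change 2.87 ± 0.38 (SE), adjusted p = 1.40e-05). Flnc, the muscle filamin that crosslinks actin, rose by 2.76 ± 0.34, and Synpo2l, a Z-disc protein, rose by 2.40 ± 0.38. Tnfrsf12a, the receptor for the cytokine TWEAK, rose by 3.17 ± 0.28. Replicate 17 was the lowest 24 h heart for Xirp2 and Flnc, and replicate 14 was for Synpo2l and Tnfrsf12a. Of 11 natriuretic peptide, receptor and fetal contractile genes, 4 rose and 4 fell, and their median of -0.02 became 0.29 on the spike-in scale. Nppb, the B-type natriuretic peptide, read 15.32, 16.08, 16.54 and 15.33 at 24 h, against 11.95, 11.44, 12.12 and 13.44 in sham (log2 change 3.58 ± 0.37 (SE), adjusted p = 8.79e-07). Corin, the protease that activates these peptides, ran the other way and fell (log2 change -1.10 ± 0.23 (SE), adjusted p = 0.00112). Npr2, a receptor of the natriuretic peptide family, fell as well (log2 change -0.78 ± 0.17 (SE), adjusted p = 0.00182), a call not made on the spike-in scale. The other receptor genes of the list did not pass the test. Acta1, the skeletal actin of the fetal heart, rose by 1.56 ± 0.32 although its groups overlapped, since sham replicate 5 (14.28) lay above replicate 15, the lowest 24 h heart.

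Sarcomere genes fell or did not pass the test. Of 19 sarcomere genes none rose, 9 fell and the median was -0.38; on the spike-in scale 2 rose and 3 fell. Tcap, which caps titin at the Z-disc, read 12.76, 12.14, 12.76 and 12.004 at 24 h, against 14.997, 15.33, 15.005 and 15.13 in sham (log2 change -2.70 ± 0.24 (SE), adjusted p = 2.26e-07). Mybpc3, the myosin-binding protein C of heart muscle, read 15.43, 14.82, 14.63 and 15.69 at 24 h, against 16.04, 16.09, 16.05 and 16.52 in sham (log2 change -1.03 ± 0.20 (SE), adjusted p = 5.62e-04). Mylk3, the cardiac myosin light chain kinase, fell by 1.17 (adjusted p = 3.51e-05). Changes of the abundant Tpm1, Tnnt2 and Myl2, which encode tropomyosin, troponin T and a myosin light chain, were -0.09, -0.13 and -0.06 and did not pass the test. The calcium handling list had 9 of 18 genes lower, none higher and a median of -0.37, against 3 lower and 1 higher on the spike-in scale. Hrc, a calcium-binding protein of the sarcoplasmic reticulum, read 13.81, 13.60, 13.96 and 14.32 at 24 h, against 15.43, 15.63, 15.45 and 15.52 in sham (log2 change -1.59 ± 0.17 (SE), adjusted p = 1.63e-06). Cacna1c, the pore of the L-type calcium channel, read 14.23, 14.36, 13.67 and 14.91 at 24 h, against 15.85, 15.69, 15.72 and 15.40 in sham (log2 change -1.38 ± 0.19 (SE), adjusted p = 2.87e-05). Ryr2, the calcium release channel, fell (log2 change -0.93 ± 0.15 (SE), adjusted p = 8.63e-05), and so did Atp2a2, the calcium pump SERCA2 (log2 change -0.42 ± 0.11 (SE), adjusted p = 0.00936). The fall of Atp2a2 did not pass without replicates 16 and 17 (adjusted p = 0.0624), where it was -0.37, nor on the spike-in scale. The exchanger Slc8a1 changed by 0.17 and the kinase Camk2d by 0.01, neither past the test.

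Most potassium channel genes, whose products repolarise the heart muscle cell, were lower. Of 19 measured, 14 fell, 11 of them at least 2-fold, 1 rose and the median was -1.13. Kcnip2, the auxiliary subunit of the transient outward current, read 10.53, 9.64, 10.04 and 11.28 at 24 h, against 13.38, 13.62, 13.43 and 14.15 in sham (log2 change -3.27 ± 0.27 (SE), adjusted p = 9.78e-08). Kcnd2, a pore subunit of the same current, read 7.73, 6.90, 6.79 and 7.86 at 24 h, against 9.56, 9.79, 9.70 and 9.81 in sham (log2 change -2.39 ± 0.21 (SE), adjusted p = 1.91e-07). Kcnh2, the pore of the rapid delayed rectifier, read 10.49, 10.42, 9.71 and 10.70 at 24 h, against 11.54, 11.89, 11.998 and 11.89 in sham (log2 change -1.500 ± 0.23 (SE), adjusted p = 5.31e-05). For Kcnd2 and Kcnh2 all 4 hearts at 24 h lay below all 4 sham hearts, while Kcnip2 was picked among genes without overlap. Over all genes tested 25.9% did not overlap. Inward rectifiers fell too, with changes of -1.91 ± 0.19 for Kcnj3, a subunit of the acetylcholine-gated channel, -1.57 ± 0.22 for Kcnj11, the pore of the ATP-sensitive channel, and -1.44 ± 0.32 for Kcnj2, which sets the resting potential. Kcnq1, Kcna5 and Kcnj5 did not pass the test, at -0.15, -0.04 and -0.35. Against 6 h hearts 7 of these channel genes were lower at 24 h and 4 were higher; Kcnip2 was among the lower (-2.69 ± 0.27, adjusted p = 7.58e-07), Kcnq1 among the higher (1.48 ± 0.21, adjusted p = 2.67e-05). Gja1, the main ventricular connexin, changed by 0.42 and did not pass the test. Of 9 adrenergic, muscarinic and adenosine signalling genes 5 rose and 1 fell, while none fell on the spike-in scale. Among the rises was Grk5, a kinase that silences beta-adrenergic receptors, which read 12.09, 12.54, 12.09 and 11.87 at 24 h, against 10.96, 10.33, 11.32 and 9.89 in sham (log2 change 1.52 ± 0.24 (SE), adjusted p = 8.29e-05). Nt5e, the CD73 enzyme that makes adenosine, rose by 2.03 ± 0.39 (at least 2.29-fold higher), but replicate 17 read 6.41, close to the sham range of 5.74 to 6.11.

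Cardiac transcription factor genes either fell or did not pass the test. Of 18 measured, 6 fell and none rose, against 4 falls and 2 rises on the spike-in scale. Tbx5, a T-box factor of the developing heart and of the conduction system, read 7.30, 7.76, 7.19 and 7.75 at 24 h, against 9.90, 9.63, 9.57 and 8.45 in sham (log2 change -1.89 ± 0.26 (SE), adjusted p = 1.90e-05), and sham replicate 5 was the lowest sham heart. Prox1 changed by -1.26 ± 0.26 and Irx4, a homeobox factor of the ventricle, by -1.15 ± 0.28 (adjusted p = 0.00123 and 0.00428). Gata4 and Tbx20 changed by 0.17 and -0.02, neither past the test.

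Genes of fatty acid oxidation and ketone use fell nearly as a block. Of 23 measured, 22 fell, none rose and the median was -0.91; 14 fell on the spike-in scale. Ucp3, the mitochondrial uncoupling protein of muscle, read 8.42, 7.39, 8.23 and 7.17 at 24 h, against 9.30, 10.70, 9.93 and 10.45 in sham (log2 change -2.29 ± 0.36 (SE), adjusted p = 8.46e-05). Acot2, a mitochondrial thioesterase, read 14.11, 13.95, 13.91 and 14.29 at 24 h, against 15.91, 16.11, 15.80 and 15.73 in sham (log2 change -1.82 ± 0.15 (SE), adjusted p = 1.18e-07). Both carnitine steps of fatty acid entry were lower, with Cpt1b, the outer-membrane transferase of muscle, changing by -1.10 ± 0.16 (adjusted p = 4.50e-05) and Cpt2, its inner-membrane partner, by -1.29 ± 0.18 (adjusted p = 2.58e-05). Cpt1a, the liver form of the outer transferase, changed by -0.55 and did not pass the test. Leaving out replicates 16 and 17 left 22 of the 23 genes lower. Against 6 h hearts 20 of these genes were lower at 24 h, and against 72 h hearts 3 were.

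The regulators of this program fell with it. Of 15 PPAR, PGC-1 and estrogen-related receptor genes and partners, 10 fell and 1 rose; on the spike-in scale 6 fell and 2 rose, and 2 rose without replicate 17. Ppara, the nuclear receptor for fatty acids, read 8.59, 8.05, 7.53 and 8.87 at 24 h, against 10.61, 10.90, 10.90 and 10.17 in sham (log2 change -2.39 ± 0.27 (SE), adjusted p = 2.83e-06). Perm1, a muscle partner of PGC-1, changed by -1.78 ± 0.25, and Ppargc1a, the coactivator PGC-1 alpha, by -0.97 ± 0.21 (adjusted p = 2.77e-05 and 0.00175). The gene that rose was Angptl4, a secreted inhibitor of lipoprotein lipase and a PPAR target, at 10.87, 10.41, 11.37 and 9.26 at 24 h, against 8.15, 8.33, 8.48 and 7.64 in sham (log2 change 2.33 ± 0.38 (SE), adjusted p = 1.31e-04); it was lower at 24 h than at 6 h (-3.46 ± 0.38, adjusted p = 1.99e-06). Lipid delivery and uptake genes fell in 12 of 18 cases and rose in 2, with 7 lower on the spike-in scale. Vldlr, a lipoprotein receptor, was tight in both groups, at 12.74, 12.69, 12.61 and 12.74 at 24 h, against 14.61, 14.67, 14.76 and 14.93 in sham (log2 change -2.05 ± 0.12 (SE), adjusted p = 2.97e-09). Gpihbp1, which holds lipoprotein lipase on capillary endothelium, changed by -1.26 ± 0.19 and Dgat2, which completes triglyceride synthesis, by -1.63 ± 0.21 (adjusted p = 5.18e-05 and 1.06e-05). Fabp3, the abundant fatty acid carrier of heart muscle, changed by -0.22 and did not pass the test.

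Genes that break down branched chain amino acids were lower as well. Of 19 genes, 17 fell, 10 at least 2-fold, with a median of -1.09. Ppm1k, the phosphatase that activates the branched chain dehydrogenase, read 11.36, 11.19, 11.05 and 11.44 at 24 h, against 13.48, 12.90, 13.38 and 12.80 in sham (log2 change -1.88 ± 0.21 (SE), adjusted p = 2.34e-06). Bckdhb, a subunit of that dehydrogenase, read 10.49, 9.94, 10.22 and 10.72 at 24 h, against 12.04, 12.07, 11.81 and 11.66 in sham (log2 change -1.55 ± 0.22 (SE), adjusted p = 2.44e-05). Mmut, the methylmalonyl-CoA mutase further down the route, changed by -1.59 ± 0.20 and Mccc2 by -1.42 ± 0.20 (adjusted p = 9.06e-06 and 2.45e-05). The single rise was Bcat1, the cytosolic transaminase that opens the route in cells other than muscle, at 8.36, 8.85, 8.96 and 8.03 at 24 h, against 5.91, 6.45, 6.12 and 5.33 in sham (log2 change 2.60 ± 0.31 (SE), adjusted p = 4.77e-06, at least 3.45-fold higher at 24 h). Pccb, a subunit of propionyl-CoA carboxylase, changed by 0.07 and did not pass the test.

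Genes of the TCA cycle and the respiratory chain fell in counts that depended on the scale. Of 19 TCA cycle genes 15 fell, with a median of -0.63, and 5 fell on the spike-in scale. Ogdh, which oxidises 2-oxoglutarate, read 16.76, 16.81, 16.41 and 16.98 at 24 h, against 17.86, 17.95, 17.999 and 17.94 in sham (log2 change -1.20 ± 0.14 (SE), adjusted p = 4.11e-06). For complex I, 17 of 23 genes fell (median -0.60), against 6 on the spike-in scale. For complexes III to V, 16 of 26 fell (median -0.48), against 2 on the spike-in scale. Cyc1, the cytochrome of complex III, read 12.17, 11.70, 11.89 and 12.60 at 24 h, against 13.06, 13.12, 13.16 and 12.996 in sham (log2 change -0.99 ± 0.19 (SE), adjusted p = 5.67e-04). None of the 23 complex I genes and none of the 26 genes of complexes III to V fell at least 2-fold. Atp5b, the catalytic subunit of ATP synthase, changed by -0.17 and did not pass the test.

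Carbohydrate genes moved in both directions. Of 27 genes of glucose uptake, glycolysis and glycogen, 6 rose and 9 fell, and the median of -0.08 became 0.22 on the spike-in scale. For the glucose carriers and phosphofructokinases named here, a form of muscle fell and a paralog rose. Slc2a4, the insulin-regulated glucose carrier GLUT4, read 10.32, 9.59, 9.82 and 10.21 at 24 h, against 11.94, 11.999, 12.03 and 11.99 in sham (log2 change -2.01 ± 0.18 (SE), adjusted p = 2.39e-07), and Slc2a1, the basal carrier GLUT1, read 12.61, 13.60, 13.58 and 12.14 at 24 h, against 11.59, 11.41, 11.43 and 11.43 in sham (log2 change 1.52 ± 0.27 (SE), adjusted p = 2.78e-04). Pfkm, the muscle phosphofructokinase, read 14.02, 13.28, 13.500 and 14.40 at 24 h, against 14.99, 15.27, 15.09 and 15.35 in sham (log2 change -1.38 ± 0.21 (SE), adjusted p = 5.34e-05), and Pfkp, the platelet form, read 14.15, 14.45, 13.87 and 13.98 at 24 h, against 12.89, 12.23, 12.503 and 12.08 in sham (log2 change 1.69 ± 0.19 (SE), adjusted p = 2.59e-06). None of these 4 genes overlapped between groups, nor did 25.9% of all genes tested. They were named from the larger changes of the list. Replicate 17 was the 24 h heart nearest to sham for GLUT1. Slc16a3, the lactate exporter MCT4, rose by 2.81 ± 0.36 (at least 5.23-fold higher), with sham at background. Gapdh, Aldoa, Ldha and Pkm, the abundant glycolytic enzymes, changed by -0.01, -0.19, 0.21 and -0.08 and did not pass the test. Genes that control pyruvate dehydrogenase changed as well. Pdk2 and Pdk4, kinases that switch the enzyme off, changed by -1.59 ± 0.22 and -1.23 ± 0.28 (adjusted p = 2.16e-05 and 0.00261), and Pdp2, a phosphatase that switches it on, read 5.90, 5.83, 5.77 and 5.66 at 24 h, against 7.35, 8.003, 7.72 and 8.43 in sham (log2 change -2.09 ± 0.25 (SE), adjusted p = 5.08e-06, at least 2.16-fold lower at 24 h). The alpha subunit gene Pdha1 fell by 0.73 (adjusted p = 0.0021), a call not made on the spike-in scale. Of the 11 genes of the complex and its control, 8 fell, against 4 on the spike-in scale, and 1 rose on both scales. The gene that rose was the kinase Pdk3, at 5.42, 5.29, 4.78 and 4.72 at 24 h, against 3.43, 3.62, 3.80 and 3.68 in sham (adjusted p = 1.72e-05), with both group means at background.

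In the synthesis of NAD, the redox carrier of these routes, the salvage enzymes went in opposite directions. Nmrk2, the muscle nicotinamide riboside kinase, read 13.06, 12.83, 13.09 and 11.82 at 24 h, against 6.05, 6.74, 5.63 and 6.27 in sham (log2 change 6.53 ± 0.48 (SE), adjusted p = 2.35e-08, at least 61.2-fold higher at 24 h). Nampt, the rate-limiting enzyme of salvage from nicotinamide, read 11.96, 11.49, 12.10 and 12.37 at 24 h, against 13.16, 13.25, 13.26 and 13.20 in sham (log2 change -1.24 ± 0.17 (SE), adjusted p = 2.01e-05). Nmrk1, the widely expressed kinase, changed by -0.25 and did not pass the test. Sirt3, the NAD-dependent deacetylase of mitochondria, fell by 0.85 (adjusted p = 0.00371), a call not made on the spike-in scale. Over 17 NAD genes 3 rose and 5 fell, against 4 and 2 on the spike-in scale, where the median of -0.25 became 0.06.

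**Figure D3:**
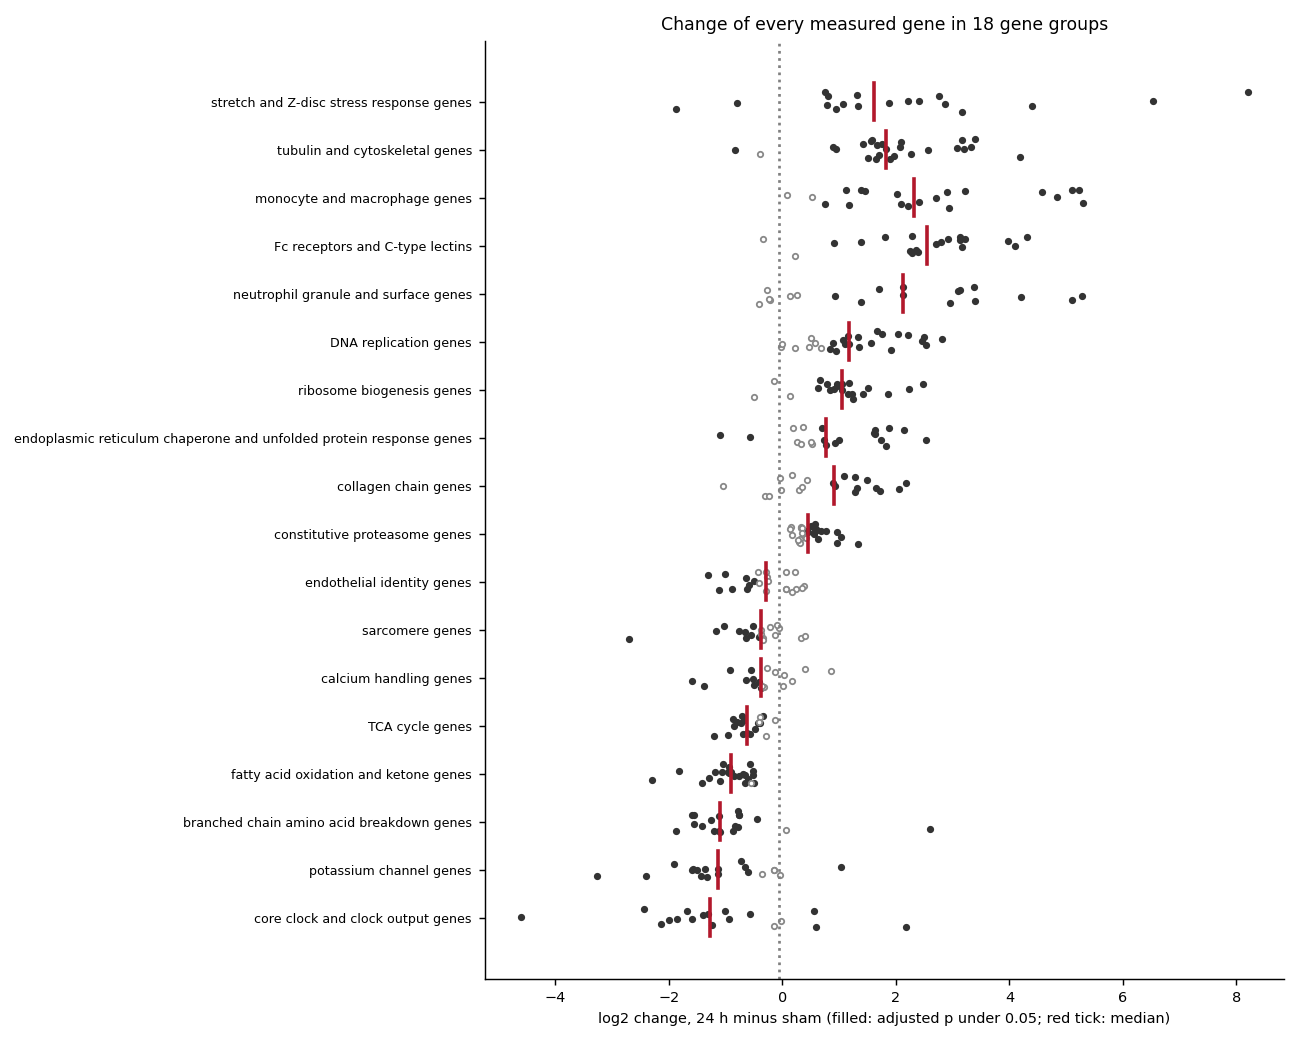
Log2 change at 24 h minus sham for every measured gene of 18 gene groups, 1 dot a gene, filled where limma's adjusted p was under 0.05 and open where it was not; vertical ticks are group medians and the dotted line is the median of all genes, -0.07. Stretch genes, cytoskeletal genes and leukocyte receptors lie mostly to the right and genes of fat and branched chain amino acid oxidation, potassium channels and clock genes mostly to the left.

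Genes of the circadian clock had the lowest median change of the 72 gene lists. The clock is a feedback loop in which the activators CLOCK and BMAL1 bind E-box sequences in the Per, Cry, Dbp and Nr1d1 genes, and the PER, CRY and REV-ERB proteins repress it. Of 18 clock and clock output genes 13 fell and 3 rose, with a median of -1.27. Promoter stretches of 3 of the genes that fell are shown because they carry the E-box letters CACGTG or the D-box letters TTATGTAA, which are bound by the DBP family. They are the 250 bases before a start of each gene in RefSeq (GRCm38.p6). Each is written 5′ to 3′ on the strand of the gene, with the matches in capitals. Where a gene had several starts, the window with the most matches is shown, and a match in any window counted for the gene.
Ciart (chr3:95882229-95882478, minus strand): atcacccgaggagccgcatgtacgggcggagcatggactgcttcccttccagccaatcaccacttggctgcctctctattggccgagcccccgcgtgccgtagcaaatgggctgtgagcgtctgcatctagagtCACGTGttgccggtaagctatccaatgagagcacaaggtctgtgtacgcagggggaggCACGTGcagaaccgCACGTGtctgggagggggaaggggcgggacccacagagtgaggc
Per1 (chr11:69098699-69098948, plus strand): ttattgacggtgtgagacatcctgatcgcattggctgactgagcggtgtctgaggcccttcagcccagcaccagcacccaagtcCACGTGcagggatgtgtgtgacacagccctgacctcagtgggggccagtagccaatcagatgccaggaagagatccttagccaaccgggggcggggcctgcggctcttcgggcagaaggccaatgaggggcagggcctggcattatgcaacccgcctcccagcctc
Per3 (chr4:151044666-151044915, minus strand): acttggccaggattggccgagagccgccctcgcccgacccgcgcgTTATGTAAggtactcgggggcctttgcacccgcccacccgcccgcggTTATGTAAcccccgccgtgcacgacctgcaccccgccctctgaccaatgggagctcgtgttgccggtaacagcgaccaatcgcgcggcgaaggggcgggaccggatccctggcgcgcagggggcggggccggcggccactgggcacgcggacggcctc
The E-box stood 3 times in the Ciart window and once in that of Per1, and the D-box stood 2 times in that of Per3. Among 16 clock genes with a window, 5 held an E-box (31.2%) and 1 a D-box (6.25%), against 7.92% and 0.911% of 15691 tested genes with a window. These are matches of letters, searched on both strands, and say nothing on binding in these hearts.

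Ciart, a repressor within the loop, read 5.45, 4.36, 5.24 and 5.67 in the 24 h hearts, against 9.34, 10.63, 9.66 and 9.52 in sham hearts (log2 change -4.61 ± 0.35 (SE), adjusted p = 3.76e-08, at least 8.13-fold lower at 24 h), so that it was at background at 24 h. Per1, named for its sequence after its values were seen, changed by -1.01 ± 0.16 (at least 1.29-fold lower), adjusted p = 1.09e-04, and was at background at 24 h. Per3, like Per1 a repressor of the loop, read 9.25, 8.27, 8.83 and 9.35 at 24 h, against 10.98, 11.36, 11.25 and 11.87 in sham (log2 change -2.44 ± 0.27 (SE), adjusted p = 2.21e-06). Dbp, an output transcription factor, read 15.48, 14.32, 15.01 and 15.27 at 24 h, against 16.80, 17.23, 16.88 and 17.14 in sham (log2 change -1.99 ± 0.28 (SE), adjusted p = 2.32e-05). Nr1d1, the repressor REV-ERB alpha, read 11.34, 10.92, 11.06 and 11.23 at 24 h, against 12.79, 12.93, 12.98 and 13.28 in sham (log2 change -1.86 ± 0.16 (SE), adjusted p = 1.49e-07). Arntl, which encodes the activator BMAL1, went the other way at 8.37, 8.46, 8.06 and 8.56 at 24 h, against 6.47, 5.48, 6.49 and 6.31 in sham (log2 change 2.17 ± 0.28 (SE), adjusted p = 1.11e-05, at least 3.03-fold higher at 24 h). For Per3, Dbp, Nr1d1 and Arntl the groups did not overlap, while Ciart was picked among genes without overlap. The share without overlap over all genes tested was 25.9%. Replicate 17 was the nearest to sham of the 24 h hearts for Ciart and Per3. Relative to the 6 h hearts, Ciart and Nr1d1 were lower at 24 h (-4.35 ± 0.35, at least 6.8-fold lower, adjusted p = 5.80e-08, and -1.61 ± 0.16, adjusted p = 6.38e-07) and Per3 was higher (0.81 ± 0.27, adjusted p = 0.0305). Relative to 72 h hearts, 10 of the 18 genes were lower and 3 higher at 24 h. Since no clock time is given for any heart, the time of day and the hours of reperfusion cannot be told apart.

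**Figure D4:**
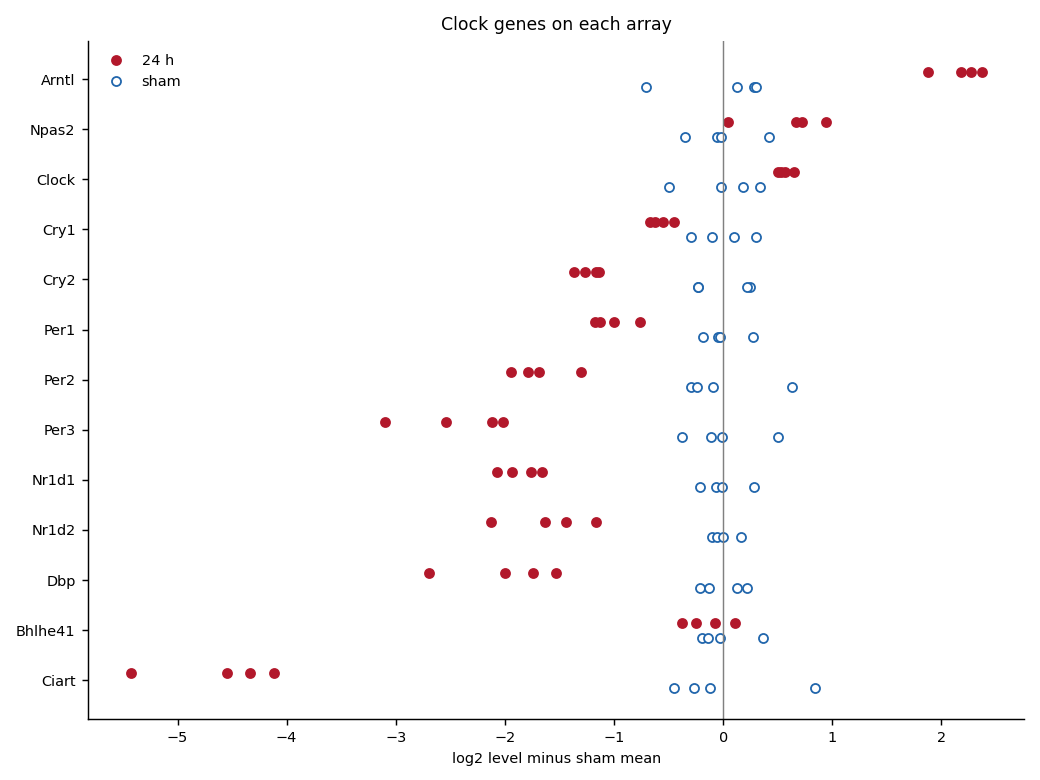
Log2 level minus the sham mean for 13 clock genes on each array, with 24 h replicates as filled circles above and sham replicates as open circles below within each gene's row. Arntl lies to the right of the sham hearts in all 4 hearts at 24 h, and Ciart, Per3, Dbp and Nr1d1 lie to the left in all 4.

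In RNA of heart tissue, more cells of a type and more RNA per cell cannot be told apart. Of 20 monocyte and macrophage genes 18 rose, and of 19 neutrophil genes 13 rose, with medians of 2.31 and 2.12. Both means were at background for 2 of the former and 9 of the latter. Csf3r, the receptor for the neutrophil growth factor G-CSF, read 9.96, 11.25, 11.90 and 7.65 at 24 h, against 5.27, 5.23, 4.61 and 4.53 in sham (log2 change 5.28 ± 0.62 (SE), adjusted p = 3.87e-06, at least 10.8-fold higher at 24 h). Cxcr2, the chemokine receptor of neutrophils, read 8.43, 9.54, 10.41 and 6.36 at 24 h, against 4.07, 4.73, 4.19 and 4.96 in sham (log2 change 4.20 ± 0.63 (SE), adjusted p = 5.20e-05, at least 3.79-fold higher at 24 h). Their 24 h values ranged widely, with replicate 16 highest and replicate 17 lowest, and replicate 17 was at background for Cxcr2. The precursor granule genes Mpo, Elane, Ngp and Ltf had both group means at background. Retnlg, a secreted product of mature neutrophils, rose by 2.95 ± 0.62 (at least 1.66-fold higher) over sham yet was lower than in 6 h hearts (-3.53 ± 0.62, adjusted p = 2.73e-04), while Mmp9, the gelatinase of neutrophil granules, was higher than in 6 h hearts (3.06 ± 0.56, at least 1.15-fold higher, adjusted p = 3.63e-04), with the 6 h mean and replicates 14 and 17 at background. Fc receptors and C-type lectins, through which myeloid cells recognise antibodies and microbes, rose in 18 of 20 cases (median 2.54). Lilrb4a, an inhibitory receptor of myeloid cells, read 14.25, 15.04, 15.31 and 13.43 at 24 h, against 10.15, 10.18, 10.24 and 10.21 in sham (log2 change 4.31 ± 0.35 (SE), adjusted p = 6.82e-08), and Fcer1g, the shared Fc receptor gamma chain, read 11.27, 12.04, 12.19 and 10.65 at 24 h, against 7.68, 7.16, 7.54 and 7.89 in sham (log2 change 3.97 ± 0.29 (SE), adjusted p = 2.35e-08). Replicate 17 was the lowest and replicate 16 the highest 24 h heart for both.

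Of 15 resident macrophage genes 5 rose and 1 fell, a share of falls below the 12.3% of all genes. The falls numbered 4 without replicate 17 and 2 without sham replicate 5. Cd163, a scavenger receptor for hemoglobin, fell and read 5.62, 4.98, 5.92 and 6.03 at 24 h, against 6.99, 6.85, 6.90 and 6.36 in sham (log2 change -1.14 ± 0.23 (SE), adjusted p = 8.13e-04, at least 1.01-fold lower at 24 h). Its 24 h mean was at background and its sham mean just above it. Lyve1, the hyaluronan receptor of perivascular macrophages, changed by -0.74, which did not pass (adjusted p = 0.0516). Igf1, a growth factor made by macrophages and fibroblasts, rose by 1.53 ± 0.27. In the lipid-associated macrophage group 9 of 14 rose and 1 fell, while none fell on the spike-in scale. The largest rise was that of Lgals3, the lectin galectin 3, at 9.06, 9.56, 9.17 and 7.46 at 24 h, against 3.92, 4.997, 4.40 and 3.87 in sham (log2 change 4.52 ± 0.42 (SE), adjusted p = 3.44e-07, at least 4.14-fold higher at 24 h). Trem2, a lipid receptor of these cells, and Gpnmb, a lysosomal glycoprotein, rose by 2.26 ± 0.37 (at least 1.11-fold higher) and 1.70 ± 0.38 (at least 1.63-fold higher), with replicate 17 at background for both. They were lower than in 72 h hearts (-3.10 ± 0.37 and -5.83 ± 0.38, adjusted p = 1.16e-05 and 1.06e-08). Class II antigen presentation genes rose in 2 of 10 cases, in 5 on the spike-in scale and in 4 without replicate 17. H2-DMb1, a peptide exchange subunit, read 8.98, 9.44, 9.92 and 8.38 at 24 h, against 6.85, 6.38, 6.90 and 7.498 in sham (log2 change 2.27 ± 0.32 (SE), adjusted p = 3.26e-05), whereas the presenting chains H2-Aa, H2-Ab1 and H2-Eb1 changed by 0.27, -0.0018 and -0.10 and did not pass. Of 19 lymphocyte, natural killer and mast cell genes, 17 had both means at background, 1 fell and none rose, while on the spike-in scale 2 rose and none fell.

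Chemokines for monocytes and for neutrophils were both raised. Of 21 CC chemokine and receptor genes 11 rose and 2 fell, or 1 without replicate 14, replicate 15, replicate 16 or sham replicate 5. Both means were at background for 11 of the 21. Ccl9 and Ccl6, mouse chemokines of the MIP-1 gamma group, rose by 4.40 ± 0.31 and 3.76 ± 0.38; Ccl9 read 14.21, 15.27, 15.37 and 14.10 at 24 h, against 10.999, 10.16, 10.64 and 9.54 in sham. Ccl7, a ligand of the monocyte receptor CCR2, rose by 4.495 ± 0.48 (at least 11.8-fold higher). Of 16 CXC chemokine and receptor genes 10 rose, and 8 had both means at background. Cxcl5, a ligand of CXCR2, read 9.10, 10.35, 9.87 and 7.29 at 24 h, against 4.82, 4.26, 4.67 and 4.38 in sham (log2 change 4.62 ± 0.45 (SE), adjusted p = 5.70e-07, at least 5.23-fold higher at 24 h), and was lower than in 6 h hearts (-1.84 ± 0.45, adjusted p = 0.00455). In the interleukin 1 family 9 of 14 rose, the soluble antagonist and the cytokine among them. Il1rn, that antagonist, read 8.31, 9.57, 10.002 and 7.31 at 24 h, against 4.19, 3.72, 3.69 and 3.96 in sham (log2 change 4.91 ± 0.39 (SE), adjusted p = 4.76e-08, at least 4.1-fold higher at 24 h), and Il1b read 8.57, 9.56, 10.26 and 7.72 at 24 h, against 5.48, 5.27, 5.69 and 6.49 in sham (log2 change 3.29 ± 0.51 (SE), adjusted p = 7.06e-05, at least 4.8-fold higher at 24 h). In the interleukin 6 family 8 of 16 rose and 2 fell, or 1 on the spike-in scale. The rises numbered 13 on the spike-in scale, 5 on the poly-A spike-in scale and 4 without either replicate 15 or replicate 16. Osmr, the oncostatin M receptor, read 11.85, 12.09, 11.92 and 11.32 at 24 h, against 9.42, 9.49, 9.51 and 9.13 in sham (log2 change 2.41 ± 0.17 (SE), adjusted p = 1.30e-08), and its 24 h hearts lay close together. Il4ra, which binds interleukins 4 and 13, rose by 3.01 ± 0.35. Lifr, the receptor for leukemia inhibitory factor, fell by 1.19 (adjusted p = 1.59e-04).

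Of 23 Toll-like receptor, inflammasome and pyroptosis genes 16 rose and none fell, and 9 had both means at background. Tlr13, which senses bacterial ribosomal RNA in mice, read 9.29, 9.85, 10.11 and 8.32 at 24 h, against 4.997, 4.76, 5.53 and 5.92 in sham (log2 change 4.09 ± 0.38 (SE), adjusted p = 3.44e-07, at least 6.19-fold higher at 24 h). Tlr1, a partner of TLR2, rose by 2.997 ± 0.35 (at least 3.75-fold higher), whereas Tlr3, the sensor of double-stranded RNA, changed by 0.08 and did not pass. Among 26 interferon-stimulated genes 3 rose and 1 fell, so that 15.4% passed, against 26.1% of all genes tested. On the spike-in scale 7 rose and none fell, and without sham replicate 5 the rises numbered 6. Bst2, which tethers budding virus particles, rose by 1.94 ± 0.32, and the guanylate-binding protein genes Gbp2 and Gbp3 changed by 0.01 and -0.29, neither past the test. Of the list 14 were lower at 24 h than at 72 h, among them Ifit3 (-1.86 ± 0.37, adjusted p = 0.00194). Of 18 complement genes 7 rose and 6 fell, while 3 fell on the spike-in scale and 3 without replicate 15 or sham replicate 4. Cfp, the properdin of the alternative pathway, read 11.38, 12.25, 12.28 and 10.40 at 24 h, against 8.37, 8.45, 8.53 and 8.64 in sham (log2 change 3.08 ± 0.31 (SE), adjusted p = 8.31e-07), and the receptors C3ar1 and C5ar1 rose by 3.01 ± 0.32 and 2.44 ± 0.32 (at least 4.24-fold higher). C7, a part of the membrane attack complex, read 8.21, 8.02, 8.75 and 8.55 at 24 h, against 9.90, 9.99, 9.68 and 10.15 in sham (log2 change -1.55 ± 0.22 (SE), adjusted p = 2.97e-05), and the membrane regulators Cd59a and Cd55 changed by -1.36 ± 0.18 and -1.13 ± 0.25 (adjusted p = 1.80e-05 and 0.00175). Against 72 h hearts 13 of the 18 complement genes were lower at 24 h.

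Adhesion genes also rose. Of 18 selectin, adhesion receptor and leukocyte integrin genes 11 rose and 1 fell. Selp, the P-selectin of platelets and activated endothelium, read 7.41, 8.79, 8.91 and 6.43 at 24 h, against 3.18, 4.34, 3.67 and 4.40 in sham (log2 change 3.98 ± 0.47 (SE), adjusted p = 4.03e-06, at least 2.17-fold higher at 24 h), with replicate 17 at background. Cd44, the hyaluronan receptor, read 12.98, 14.19, 14.29 and 11.98 at 24 h, against 9.83, 9.02, 10.14 and 9.41 in sham (log2 change 3.76 ± 0.37 (SE), adjusted p = 6.05e-07). Pecam1, Cdh5 and Icam2 of quiescent endothelium changed by 0.24, 0.22 and 0.04 and did not pass. Of 19 S100 and annexin genes, calcium-binding proteins of many cell types, 14 rose and 2 fell. The share of falls was below the 12.3% of all genes. S100a6 read 9.94, 10.13, 10.17 and 9.67 at 24 h, against 6.60, 7.27, 7.12 and 6.29 in sham (log2 change 3.16 ± 0.21 (SE), adjusted p = 8.43e-09), and Anxa2, which gathers plasmin formation at the cell surface, read 13.08, 13.41, 13.73 and 12.17 at 24 h, against 9.87, 9.28, 9.73 and 9.46 in sham (log2 change 3.52 ± 0.26 (SE), adjusted p = 2.35e-08). S100a1, the form of heart muscle, fell by 0.55 (adjusted p = 0.00846), a call not made on the spike-in scale.

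Matrix genes rose in an uneven pattern. Tnc, the glycoprotein tenascin C of injured tissue, read 12.60, 12.94, 13.07 and 11.39 at 24 h, against 5.54, 4.79, 4.89 and 4.95 in sham (log2 change 7.46 ± 0.36 (SE), adjusted p = 3.97e-10, at least 53.3-fold higher at 24 h). Ccn2, connective tissue growth factor, read 12.34, 13.95, 13.83 and 10.88 at 24 h, against 7.37, 7.65, 7.64 and 7.62 in sham (log2 change 5.18 ± 0.50 (SE), adjusted p = 4.70e-07), and Vcan, the proteoglycan versican, read 11.67, 11.47, 11.79 and 11.21 at 24 h, against 9.12, 8.92, 8.78 and 8.47 in sham (log2 change 2.71 ± 0.17 (SE), adjusted p = 6.76e-09). The 24 h hearts spread widely for Ccn2, with replicate 17 the lowest, and lay close together for Vcan. Fbln1, a fibulin of elastic fibers and basement membranes, fell, at 8.79, 8.56, 8.90 and 8.66 at 24 h, against 10.86, 10.81, 10.90 and 10.498 in sham (log2 change -2.04 ± 0.13 (SE), adjusted p = 8.43e-09). In all 10 of 26 matricellular and glycoprotein genes rose and 5 fell. Of 20 collagen chains 11 rose and none fell. Col3a1 read 12.91, 12.07, 11.79 and 12.49 at 24 h, against 9.92, 9.59, 10.21 and 10.84 in sham (log2 change 2.17 ± 0.29 (SE), adjusted p = 1.49e-05), and was lower than in 72 h hearts (-3.36 ± 0.29, adjusted p = 3.26e-07). Col4a1, a basement membrane chain, read 9.45, 9.47, 9.78 and 8.81 at 24 h, against 7.67, 7.88, 7.32 and 8.01 in sham (log2 change 1.66 ± 0.20 (SE), adjusted p = 4.17e-06), and in contrast to the fibrillar chain was higher than in 72 h hearts (1.10 ± 0.20, adjusted p = 7.03e-04). Lox, the collagen cross-linking oxidase, read 9.12, 8.74, 8.90 and 9.39 at 24 h, against 6.03, 5.67, 6.69 and 5.95 in sham (log2 change 2.95 ± 0.24 (SE), adjusted p = 7.02e-08, at least 4.84-fold higher at 24 h), and replicate 17 was its highest heart. It too was lower than in 72 h hearts (-3.12 ± 0.24, adjusted p = 8.22e-08).

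Of 23 metalloproteinase, ADAMTS and TIMP genes 12 rose and 4 fell, against 2 falls on the spike-in scale and 2 without replicate 15 or sham replicate 5. Adam12, a membrane protease of regenerating tissue, read 7.96, 8.99, 8.35 and 7.42 at 24 h, against 3.93, 3.73, 3.79 and 4.76 in sham (log2 change 4.13 ± 0.28 (SE), adjusted p = 9.50e-09, at least 2.67-fold higher at 24 h). Mmp14, a membrane collagenase, rose by 2.60 ± 0.36 (at least 4.6-fold higher), and Adam8, of myeloid cells, by 4.41 ± 0.59 (at least 1.87-fold higher), with replicate 17 at background for Adam8. The inhibitors diverged, since Timp1 rose by 8.95 and Timp4, the form of heart muscle, read 8.41, 7.47, 7.44 and 8.84 at 24 h, against 10.03, 10.76, 11.13 and 9.05 in sham (log2 change -2.21 ± 0.39 (SE), adjusted p = 2.56e-04), with sham replicate 5 near the highest 24 h heart. Timp3, which binds to the matrix, read 8.96, 8.69, 9.22 and 8.53 at 24 h, against 10.89, 10.80, 10.64 and 10.58 in sham (log2 change -1.88 ± 0.17 (SE), adjusted p = 1.91e-07). Of 19 plasminogen activation and coagulation genes 12 rose and 2 fell. Plaur, the urokinase receptor, read 7.31, 8.89, 9.43 and 6.48 at 24 h, against 4.46, 4.48, 3.79 and 4.87 in sham (log2 change 3.63 ± 0.49 (SE), adjusted p = 1.78e-05, at least 2.4-fold higher at 24 h), and its ligand Plau rose by 2.21 ± 0.31 (at least 2.65-fold higher). Serpina3n, an acute-phase inhibitor of serine proteases, read 12.77, 11.69, 13.56 and 12.88 at 24 h, against 8.74, 7.92, 8.20 and 5.97 in sham (log2 change 5.02 ± 0.51 (SE), adjusted p = 8.56e-07). Sham replicate 5 was again the lowest sham heart. F3, the tissue factor that starts coagulation, fell by 1.19 (adjusted p = 6.48e-05).

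Stromal and vascular genes gave both rises and falls. Of 21 fibroblast genes 5 rose and 3 fell, a share of falls close to the 12.3% of all genes. Their median of -0.10 became 0.21 on the spike-in scale, and 13 were lower than in 72 h hearts. Meox1, a homeobox factor of activated fibroblasts, rose by 2.07 ± 0.31 (at least 2.55-fold higher). Islr, a secreted protein of stromal cells that is not in this list, fell by 2.23 (adjusted p = 7.90e-05). Aldh1a2, the retinoic acid synthase of epicardium and stroma, read 10.11, 10.13, 10.56 and 9.63 at 24 h, against 5.99, 6.62, 6.61 and 6.41 in sham (log2 change 3.70 ± 0.21 (SE), adjusted p = 1.44e-09, at least 10.2-fold higher at 24 h). The epicardial and mesothelial group as a whole gave 2 rises and 3 falls in 14, a share of rises close to the 13.8% of all genes. Of 22 endothelial identity genes 8 fell and none rose; on the spike-in scale 4 fell and 4 rose. Aqp1, the water channel of capillaries, read 13.13, 12.72, 13.19 and 13.30 at 24 h, against 14.19, 14.57, 14.32 and 14.46 in sham (log2 change -1.30 ± 0.20 (SE), adjusted p = 7.31e-05), and was lower than in 6 h hearts too (-1.99 ± 0.20, adjusted p = 7.64e-07). Kdr, the main VEGF receptor, changed by -0.88 ± 0.15 and Vegfa, its ligand, by -1.10 ± 0.21 (adjusted p = 1.67e-04 and 7.05e-04). Agtr1a, the angiotensin II receptor, read 11.80, 11.70, 11.33 and 11.62 at 24 h, against 13.17, 13.36, 13.13 and 13.70 in sham (log2 change -1.73 ± 0.19 (SE), adjusted p = 2.51e-06). Of 29 genes of the TGF beta superfamily 10 rose and 4 fell, a share of falls close to the 12.3% of all genes, against 2 lower on the spike-in scale, and 6 higher without replicate 16. Tgfb2 read 11.48, 12.42, 12.29 and 11.18 at 24 h, against 9.23, 8.81, 9.12 and 9.40 in sham (log2 change 2.70 ± 0.23 (SE), adjusted p = 1.14e-07), and Fstl3, a secreted activin antagonist, read 10.498, 11.92, 9.66 and 9.73 at 24 h, against 7.35, 6.65, 6.79 and 5.97 in sham (log2 change 3.76 ± 0.39 (SE), adjusted p = 1.17e-06, at least 11.6-fold higher at 24 h). Bmp4, a bone morphogenetic protein, read 6.45, 6.57, 6.51 and 6.84 at 24 h, against 8.65, 8.41, 8.28 and 7.85 in sham (log2 change -1.70 ± 0.23 (SE), adjusted p = 1.52e-05, at least 2.86-fold lower at 24 h). Its 24 h mean was at background. Of 25 Wnt genes 19 had both means at background, 2 rose and 3 fell (1 on the spike-in scale), a share no larger than that over all genes.

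Of 26 DNA replication genes 19 rose and none fell, with a median of 1.17 and 13 with both means at background. The promoter stretches of Mcm5 and Mcm6, subunits of the replicative helicase, are shown because they hold letters bound by E2F factors, the regulators of S phase. Searched on both strands were TTTGGCGC, TTTCCCGC and TTTGGCGG.
Mcm5 (chr8:75109259-75109508, plus strand): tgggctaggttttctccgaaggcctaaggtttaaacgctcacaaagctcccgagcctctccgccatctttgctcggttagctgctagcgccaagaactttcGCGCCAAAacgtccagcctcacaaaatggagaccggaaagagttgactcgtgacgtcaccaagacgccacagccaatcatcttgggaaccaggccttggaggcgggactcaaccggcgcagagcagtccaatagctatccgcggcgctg
Mcm6 (chr1:128359706-128359955, minus strand): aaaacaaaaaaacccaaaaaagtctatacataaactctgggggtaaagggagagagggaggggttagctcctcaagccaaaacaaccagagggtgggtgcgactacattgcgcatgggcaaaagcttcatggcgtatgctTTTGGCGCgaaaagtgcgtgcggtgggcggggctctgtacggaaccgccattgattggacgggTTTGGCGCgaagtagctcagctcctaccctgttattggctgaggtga
An E2F match stood in 4 of 21 replication genes with a window (19%) and in none of 20 mitosis genes, against 2.6% of tested genes with a window. Mcm6 read 10.18, 10.29, 10.44 and 9.37 at 24 h, against 7.56, 7.52, 7.53 and 7.82 in sham (log2 change 2.46 ± 0.20 (SE), adjusted p = 8.52e-08). Prim1, the catalytic subunit of primase, read 9.15, 8.84, 8.36 and 8.09 at 24 h, against 5.53, 6.06, 6.09 and 6.78 in sham (log2 change 2.49 ± 0.26 (SE), adjusted p = 1.29e-06, at least 3.59-fold higher at 24 h), and replicates 14 and 15 were higher than 16 and 17. Against 6 h hearts 22 of the replication genes were higher at 24 h. Of 24 mitosis genes 14 rose over sham and 1 fell, or none on the spike-in scale, but 20 had both means at background. Relative to 72 h hearts 21 were lower. Kif11, a spindle motor, rose by 1.77 ± 0.41 (at least 1.57-fold higher) over sham and was lower than at 72 h (-1.46 ± 0.41, adjusted p = 0.0229). Among G1 genes Myc read 8.98, 10.30, 10.11 and 7.75 at 24 h, against 5.48, 5.22, 5.36 and 5.37 in sham (log2 change 3.93 ± 0.43 (SE), adjusted p = 2.04e-06, at least 5.74-fold higher at 24 h), and Cdk4 rose by 1.30 ± 0.23. The cell cycle inhibitor Cdkn1a read 12.76, 13.78, 13.74 and 12.28 at 24 h, against 11.93, 10.85, 11.94 and 9.41 in sham (log2 change 2.11 ± 0.44 (SE), adjusted p = 0.00119), with sham replicate 5 the lowest sham heart and replicate 17 close to the highest sham hearts. Immediate early genes rose in 6 of 23 cases and fell in 3, a share of falls close to the 12.3% of all genes. Relative to 6 h hearts 18 of them were lower.

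Genes that build ribosomes and charge tRNAs rose too. Of 21 ribosome biogenesis genes 18 rose, and of 18 aminoacyl-tRNA synthetase genes 14 rose, none falling in either group. Rrp12, a factor in small subunit export, read 9.77, 10.64, 9.96 and 9.34 at 24 h, against 7.63, 7.31, 7.32 and 7.56 in sham (log2 change 2.47 ± 0.22 (SE), adjusted p = 1.63e-07), and Nhp2, of small nucleolar particles, read 11.49, 11.98, 12.11 and 10.82 at 24 h, against 9.34, 9.11, 9.44 and 9.55 in sham (log2 change 2.24 ± 0.23 (SE), adjusted p = 1.15e-06). Over the whole lists, 17 ribosome genes and 11 synthetase genes were higher than in 72 h hearts. In the ATF4 amino acid program 8 of 20 rose and 2 fell, or 1 without sham replicate 3 or sham replicate 5. Psat1, of serine synthesis, read 9.55, 10.39, 9.84 and 8.26 at 24 h, against 6.09, 5.53, 5.90 and 6.19 in sham (log2 change 3.58 ± 0.36 (SE), adjusted p = 7.72e-07, at least 6.71-fold higher at 24 h), and Asns, asparagine synthetase, read 9.87, 10.65, 11.52 and 9.78 at 24 h, against 8.54, 8.09, 8.02 and 8.16 in sham (log2 change 2.25 ± 0.32 (SE), adjusted p = 2.77e-05). Atf4 itself changed by 0.73 and did not pass. For polyamines, which are made from ornithine, Odc1 and Srm, which catalyse successive steps, rose by 1.70 ± 0.26 and 2.57 ± 0.29, and Arg1, which yields ornithine, read 8.998, 9.83, 11.56 and 8.95 at 24 h, against 4.95, 5.07, 4.30 and 4.12 in sham (log2 change 5.22 ± 0.53 (SE), adjusted p = 8.98e-07, at least 8.4-fold higher at 24 h), with replicate 16 the highest 24 h heart. Proteasome subunits rose by small amounts, 17 of 30 with a median of 0.45; all 30 rose on the hybridization spike-in scale and 8 on the poly-A spike-in scale.

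Chaperones of the endoplasmic reticulum, where secreted proteins fold, rose in 13 of 21 cases and fell in 2. Promoter stretches of Creld2 and Sdf2l1, both factors of that compartment, are shown because CCAAT and CCACG, the ends of the ER stress element, both stand in them. On the opposite strand these letters read ATTGG and CGTGG.
Creld2 (chr15:88819396-88819645, plus strand): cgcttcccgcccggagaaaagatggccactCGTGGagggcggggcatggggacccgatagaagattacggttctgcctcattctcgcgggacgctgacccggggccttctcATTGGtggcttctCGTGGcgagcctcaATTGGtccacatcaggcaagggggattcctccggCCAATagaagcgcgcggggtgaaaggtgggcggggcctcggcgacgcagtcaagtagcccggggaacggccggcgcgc
Sdf2l1 (chr16:17132384-17132633, minus strand): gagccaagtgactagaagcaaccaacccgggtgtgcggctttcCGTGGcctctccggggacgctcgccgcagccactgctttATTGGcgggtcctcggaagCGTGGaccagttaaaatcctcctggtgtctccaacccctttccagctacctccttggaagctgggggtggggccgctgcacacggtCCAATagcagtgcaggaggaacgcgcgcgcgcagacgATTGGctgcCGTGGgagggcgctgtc
CCAAT stood in 16 of 19 genes of the group with a window (84.2%) and CCACG in 15 of 19 (78.9%), against 39.2% and 36.8% of tested genes with a window. Each was searched alone, at any distance from the other, so that these counts do not show how often a whole element occurs. The Creld2 window does hold both ends close together on the opposite strand, as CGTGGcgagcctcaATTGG. Their spacing was not part of the search. All these matches say nothing on binding in these hearts. Creld2 read 9.81, 10.48, 11.64 and 9.53 at 24 h, against 8.20, 7.30, 8.16 and 7.71 in sham (log2 change 2.52 ± 0.33 (SE), adjusted p = 1.44e-05), and was higher than at 6 h and at 72 h (3.05 ± 0.33 and 2.48 ± 0.33, adjusted p = 1.75e-06 and 4.58e-05). Hyou1, a chaperone of the HSP70 family, read 12.47, 13.29, 13.60 and 12.26 at 24 h, against 10.92, 11.02, 11.51 and 10.68 in sham (log2 change 1.88 ± 0.27 (SE), adjusted p = 3.51e-05), and it too exceeded both other times (2.59 ± 0.27 and 2.17 ± 0.27, adjusted p = 9.88e-07 and 1.91e-05). Against 6 h hearts 15 of the 21 genes were higher. Heat shock protein and co-chaperone genes gave 6 rises and 2 falls in 20, a share of falls below the 12.3% of all genes. There was no fall on the spike-in scale and 1 fall without replicate 15, replicate 16, sham replicate 2 or sham replicate 3. Hspb1, the small heat shock protein HSP27, read 14.38, 16.63, 15.33 and 14.06 at 24 h, against 11.82, 11.81, 12.03 and 11.20 in sham (log2 change 3.39 ± 0.39 (SE), adjusted p = 2.94e-06), with replicate 15 the highest, and Hspb6, Hspb7 and Hspb8, its relatives in muscle, changed by -0.12, 0.12 and -0.07 and did not pass.

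Iron and antioxidant genes moved member by member. Of 23 heme, iron and metallothionein genes 10 rose and 2 fell. Hmox1, which breaks down heme, read 11.87, 12.92, 13.01 and 11.13 at 24 h, against 7.58, 7.86, 7.66 and 7.54 in sham (log2 change 4.57 ± 0.63 (SE), adjusted p = 2.31e-05), and Ftl1, the light chain of ferritin, read 14.49, 14.97, 15.24 and 13.82 at 24 h, against 12.57, 12.51, 12.40 and 12.57 in sham (log2 change 2.12 ± 0.26 (SE), adjusted p = 6.72e-06). Fth1, the ferritin heavy chain, changed by -0.06 and did not pass. Mt2, a metallothionein that binds zinc, read 17.34, 17.63, 17.27 and 17.51 at 24 h, against 15.64, 16.52, 15.45 and 13.70 in sham (log2 change 2.11 ± 0.43 (SE), adjusted p = 9.13e-04), while Mt1 changed by 0.05 and did not pass. Of 25 NRF2 target, glutathione and antioxidant genes 8 rose and 8 fell, against 4 falls on the spike-in scale and 5 rises without replicates 16 and 17. Gpx1, a glutathione peroxidase, read 14.09, 14.22, 14.30 and 13.55 at 24 h, against 12.40, 11.94, 12.25 and 12.54 in sham (log2 change 1.75 ± 0.18 (SE), adjusted p = 8.97e-07), and Gsta3, a glutathione transferase, read 6.19, 5.43, 5.94 and 6.41 at 24 h, against 7.45, 8.35, 8.51 and 7.82 in sham (log2 change -2.04 ± 0.28 (SE), adjusted p = 1.82e-05, at least 2.41-fold lower at 24 h). Nqo1, a quinone reductase often read as a marker of NRF2, fell by 1.26 (adjusted p = 1.68e-05).

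Tubulin and cytoskeletal genes had the highest share of rises of the 72 gene lists, 23 of 25, with a median of 1.83 and 1 fall. Tubb6, a beta tubulin, read 11.90, 13.14, 12.65 and 10.78 at 24 h, against 8.15, 8.20, 7.81 and 7.56 in sham (log2 change 4.19 ± 0.39 (SE), adjusted p = 2.80e-07). Msn, the membrane linker moesin, read 13.98, 14.88, 13.996 and 12.63 at 24 h, against 10.52, 10.29, 10.73 and 10.63 in sham (log2 change 3.33 ± 0.33 (SE), adjusted p = 5.25e-07), and Vim, the intermediate filament of mesenchymal cells and leukocytes, read 16.14, 16.43, 16.30 and 15.44 at 24 h, against 13.45, 13.38, 13.52 and 13.68 in sham (log2 change 2.57 ± 0.21 (SE), adjusted p = 7.02e-08). Replicate 15 was the highest and replicate 17 the lowest 24 h heart for all of these. Tuba4a changed by -0.39 and did not pass. Itga5, the fibronectin receptor subunit, read 10.24, 11.48, 11.41 and 10.17 at 24 h, against 7.83, 7.498, 7.60 and 7.44 in sham (log2 change 3.23 ± 0.25 (SE), adjusted p = 4.76e-08). In its list 10 of 20 matrix-binding integrin and focal adhesion genes rose and 2 fell, or 1 on the spike-in scale. Macrophage markers averaged 10.87, 11.26, 11.43 and 10.41 in the same 24 h hearts, against 8.73, 8.59, 8.64 and 8.89 in sham hearts; their part in the rise of these widely expressed genes was not tested.

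Setting the 24 h hearts against the other times showed where 24 h differed from them. At 24 h 421 genes (2.16%) were above sham, 6 h and 72 h hearts alike, each by its own test, and 300 (1.54%) were below all of them. Ankrd2 was above all of them, with group means of 3.98 in sham, 8.31 at 6 h, 12.18 at 24 h and 4.29 at 72 h (24 h minus 6 h 3.87 ± 0.55, adjusted p = 3.13e-05, and 24 h minus 72 h 7.89 ± 0.55, at least 42.8-fold higher, adjusted p = 2.21e-08). Star, which carries cholesterol into mitochondria, averaged 3.90 in sham, 3.79 at 6 h, 7.78 at 24 h and 6.45 at 72 h, and was higher at 24 h than at 6 h (3.98 ± 0.35, at least 2.02-fold higher, adjusted p = 1.50e-07) and at 72 h (1.33 ± 0.35, at least 1.88-fold higher, adjusted p = 0.0148), both at background. Kcnip2 was below all of them, at 13.64 in sham, 13.06 at 6 h, 10.37 at 24 h and 12.96 at 72 h. Slc2a4 also lay below both times (-1.33 ± 0.18 and -1.31 ± 0.18, adjusted p = 2.17e-05 and 6.83e-05).

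Nr4a3, an immediate early nuclear receptor, averaged 8.37 in sham, 12.28 at 6 h, 6.58 at 24 h and 6.18 at 72 h, and was below its sham level at 24 h (log2 change -1.79 ± 0.28 (SE), adjusted p = 8.04e-05, at least 2.89-fold lower at 24 h). Pdk4 averaged 13.42 in sham, 17.43 at 6 h, 12.19 at 24 h and 13.58 at 72 h, and was lower at 24 h than at 6 h (-5.24 ± 0.28, adjusted p = 2.35e-10). Sdc4, a syndecan, rose by 1.13 ± 0.19 over sham and lay below 6 h (-3.46 ± 0.19, adjusted p = 3.34e-10). Col1a1 averaged 7.63 in sham, 7.26 at 6 h, 9.13 at 24 h and 13.41 at 72 h (24 h minus 72 h -4.28 ± 0.22, adjusted p = 7.38e-10). Pltp, a phospholipid transfer protein, was below sham at 24 h (log2 change -1.56 ± 0.26 (SE), adjusted p = 1.77e-04) and below 72 h (-3.33 ± 0.26, adjusted p = 1.24e-07). Hspb1 was the reverse, above 72 h (4.59 ± 0.39, adjusted p = 2.74e-07), while its difference from 6 h (-0.17) did not pass.

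**Figure D5:**
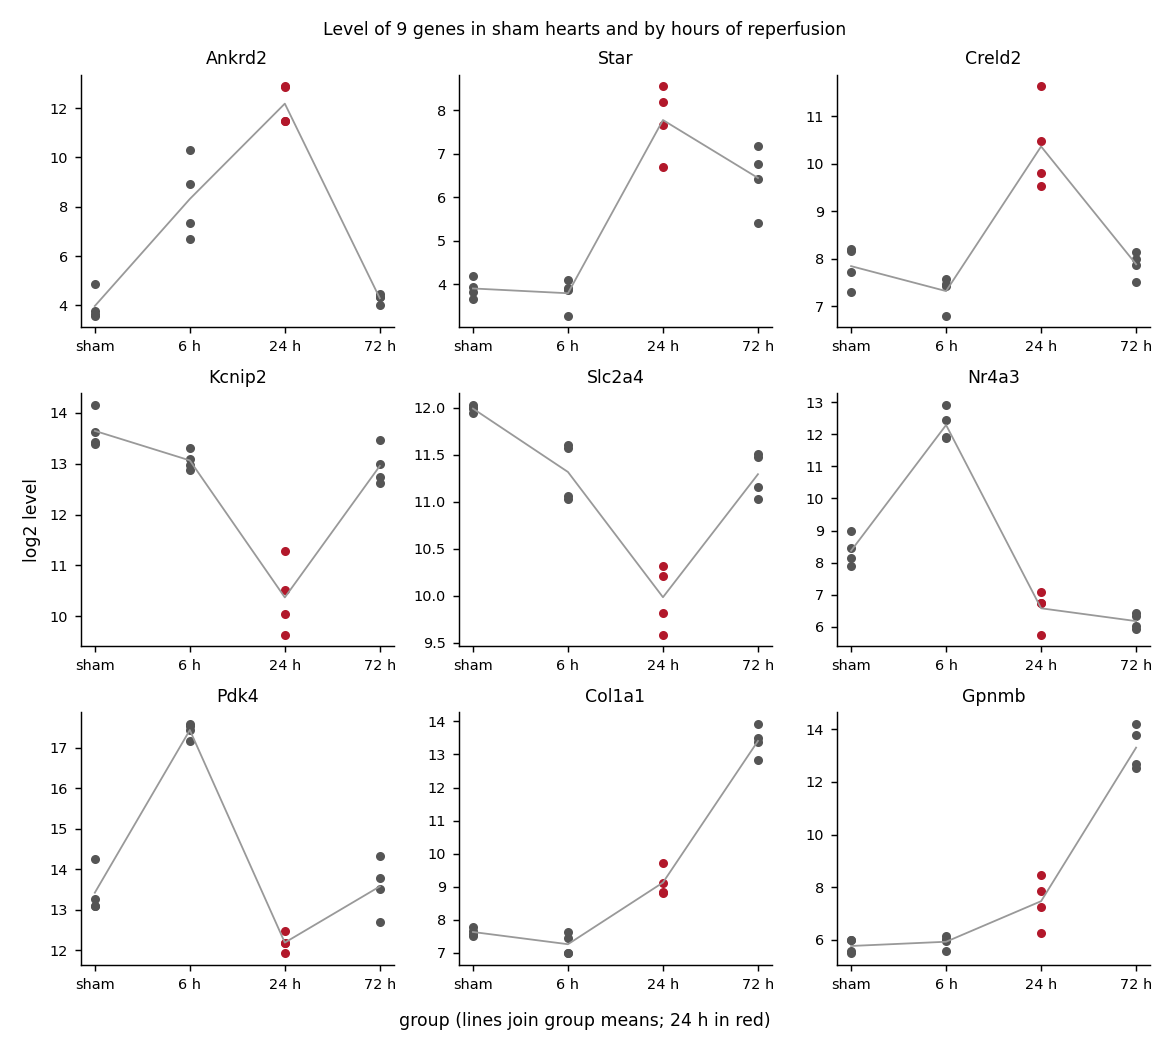
Log2 level of 9 genes on each of the 16 arrays in the order sham, 6 h, 24 h and 72 h, with lines joining the group means; sham carries no hour and is placed at the low end. Ankrd2, Star and Creld2 peak at 24 h, Kcnip2 and Slc2a4 are lowest there, Nr4a3 and Pdk4 peak at 6 h, and Col1a1 and Gpnmb are highest at 72 h.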

How the data were processed

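Total RNA of mouse hearts was measured on 16 Affymetrix arrays, in 4 groups of 4. Each array took 1 RNA sample, which is called a heart in this text. The log2 values were used as the authors deposited them. They were made with Affymetrix Expression Console, per the submitters' processing notes, while the summarization method, version and log base are not stated there. The base was taken as 2 from the range of the values, which run from 1.83 to 19.8. The labels' text names a different array design from the one whose probe set identifiers the values carry, and the series title lists other hours than the labels. The identifiers and the labels were followed.

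Of 28846 probe sets 19572 had 1 gene symbol, 9274 had none and no probe set had several. For the 55 genes with several probe sets the one with the highest mean stood for the gene, giving 19505 genes, and dim genes were not filtered out. limma 3.58.1 in R 4.3.3 was fitted over the 16 arrays with 4 group means and eBayes, and p-values were adjusted by Benjamini-Hochberg over all 19505 genes. The fit had 12 residual degrees of freedom and 6.943 prior degrees of freedom, and it was tested on simulated data. A lower bound of a fold set the mean of the brighter group against the mean of the dimmer group after each array below 6.76, the 75th percentile of 5222 negative control probe sets, had been raised to it. Array measures were compared by exact permutation tests over 70 splits of 4 against 4, two-sided, whose smallest p is 0.0286. The number of arrays limits the precision, and no detection calls or scan dates were used. No 2 arrays held identical values.

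The genes and the 72 gene lists were chosen with earlier results of these data known. Of 1468 listed genes 1343 were matched, 6 of them by an older symbol, and the other 125 were not analysed here. Named genes were the 15 largest rises and falls whose groups did not overlap, up to 8 changed members and the 4 most abundant other members of each list, the 8 largest rises and falls against 6 h and against 72 h, and cell type markers. Promoter windows came from RefSeq (GRCm38.p6), 250 bases before each gene start, for 15691 of the tested genes. For a gene with several windows, the one printed was that with the most matches, and a match in any of them counted. Motif letters were also searched for lists without a printed sequence, over genes with a window. Amino acid response letters stood in 16.7% of ATF4 and 9.09% of synthetase genes, against 0.854% of tested genes. Antioxidant response letters stood in 28.6% of NRF2 genes (tested genes 12.2%) and metal response letters in 16.7% of iron genes (18.6%). AP-1 letters stood in 26.7% of metalloproteinase and 6.25% of stretch genes (4.84%), and CArG-like letters in 0% of stretch genes (0.153%). Figures were drawn with matplotlib 3.10.9 and permutations were run in Python 3.11.15 with scipy 1.17.1. Alternatives were quantile normalization, centring on the array median or on either set of spike-ins, the mean of probe sets, filters on dim genes, other eBayes settings, array weights, a fit of the 8 arrays alone, and leaving out arrays.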

Additional observations from a re-analysis of the deposited data

Results flagged for a closer look

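In 26 of 462 groups of 4 arrays tested, which are the named genes and array measures at 24 h and in sham, 1 array lay far from the other 3 by Dixon's criterion. Chance alone picks about 1 in 20 groups. Among the 24 h hearts, replicate 16 stood apart for the atrial cardiomyocyte markers (9.84), Prg4 (15.73), the calcium pump Atp2a2 (18.57) and the channel Kcnq1 (8.05). Replicate 15 stood apart for Asb14 (9.05), Bst2 (8.18) and Ngp (3.51), the last at background. Replicate 14 did so for the channel Kcnj5 (11.69), and replicate 17 for the troponin gene Tnnt2 (18.86) and the T cell markers (4.83), which were at background. Among the sham hearts, replicate 5 stood apart for Lcn2 (7.38), Corin (14.25), Igf1 (12.70), Mybpc3 (16.52), Tnnt2 (18.78), Asb15 (14.41), Ccl6 (6.53) and Mcm6 (7.82). Replicate 3 did so for Pdk4 (14.25), Plau (5.68), Icam2 (7.81) and Ngp (4.34), replicate 2 for Ankrd2 (4.88), Ccn2 (7.37) and Slc2a1 (11.59), and replicate 4 for the ATP synthase gene Atp5b (18.74).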

How the results depend on the processing

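No paired analysis was possible because the groups share no replicate number. Of 4146 values of the 208 named genes under the alternatives none changed direction with a call, 30 newly passed and 6 no longer did, which were Npr2, Pdha1, S100a1, Sirt3 and Atp2a2 on the hybridization spike-in scale and Atp2a2 without replicates 16 and 17. On that spike-in scale 4546 genes were higher and 841 lower, with 1964 and 288 at least 2-fold. Median centring gave 3290 genes lower than at 6 h. Leaving out 1 array at a time gave 2279 to 2948 higher and 1890 to 2616 lower genes. The mean atrial marker difference ranged from -0.0354 to 0.8151 without 1 array at a time, the lowest without replicate 16, and was -0.0700 without replicates 16 and 17.

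Counts of list members that moved in the list's main direction changed by over 1.5 times as follows, and the cause was not tested. On the hybridization spike-in scale the count of falls was 3 for sarcomere, 3 for calcium handling, 14 for fatty acid oxidation, 5 for TCA cycle, 6 for complex I, 2 for complexes III to V, 4 for pyruvate dehydrogenase, 6 for PPAR and PGC-1, 7 for lipid delivery, 2 for NAD, 4 for endothelial, 1 for Wnt and 0 for lymphocyte genes. The count of rises there was 13 for interleukin 6 family, 5 for MHC class II, 7 for interferon-stimulated and 30 for proteasome genes. On the poly-A spike-in scale it was 5 for the interleukin 6 family and 8 for the proteasome, with 5 falls for Wnt genes. Median centring gave 5 falls each for Wnt and epicardial genes. Filters on dim genes test fewer genes. The negative control filter gave 3 rises for resident macrophage, 6 for CXC chemokine, 3 for fibroblast and 3 for mitosis genes and 0 falls for lymphocyte genes, and the median filter 8 for mitosis and 0 for lymphocyte genes. Without replicates 16 and 17 NRF2 genes gave 5 rises. Without 1 array at a time the counts ranged from 4 to 9 for the interleukin 6 family, from 2 to 4 for MHC class II genes, from 3 to 6 for interferon-stimulated genes and from 6 to 10 for TGF beta superfamily.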
